A study of Rattus norvegicus with 4 samples.

Results

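The unfolded protein response and secretory folding genes described here are 36 genes chosen by name for the chaperones, sensors, transcription factors and degradation machinery of the endoplasmic reticulum (ER). A gene was measured where a row of the array carried its symbol and no other, and 33 of the 36 had such a row, each with 1 row, among 14506 genes tested. Ern1, Edem1 and Derl2 had none and are not analysed here. The fat came from the retroperitoneal adipose tissue, a white depot, of 4 rats (WNIN/Ob strain, male, 4 months of age). The 2 lean rats and 2 obese rats were untreated, were fed stock diet freely, and each gave 1 sample on 1 Affymetrix Rat Gene ST array. The labels give the phenotype of each rat but not its genotype at the locus behind the obesity, and whole tissue was extracted, so every value is a mixture of cell types.

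Proteins that are secreted or inserted into membranes fold in the ER, where chaperones, disulfide isomerases and lectins assist them. When unfolded proteins accumulate, the sensors ATF6, IRE1 (the product of Ern1) and PERK (the product of Eif2ak3) are activated. Cleaved ATF6 and the spliced form of XBP1 raise transcription of chaperones, translocation and degradation genes, while PERK slows translation and favours synthesis of ATF4, which drives amino acid and stress genes such as Ddit3 and Trib3. Adipocytes secrete hormones, lipases and matrix proteins, and this response has been widely studied in the fat of obese animals.

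In the fat of obese rats most of these genes had higher values than in that of lean rats, but none passed the test alone. On the log2 scale 28 of 33 differences, obese minus lean, were above 0, against 50.1% of all genes, and their median was 0.37, against 0.00047 over all genes. Without the dimmest 25% of genes, the median was 0.39 for the members and 0.11 for all genes left. By limma with Benjamini-Hochberg adjustment over all genes, 0 of 33 members had an adjusted p under 0.05, where 0.841% of all genes did (0.772% higher and 0.0689% lower). At an unadjusted p under 0.05 limma gave 8 members higher, 24.2% of them against 9.93% of all genes, and 0 lower, against 5.33% of all genes. Each obese rat exceeded either lean rat in 22 members, 66.7% against 26.4% of all genes, and each was below either lean rat in 3 (Xbp1, Ppp1r15a and Chac1), 9.09% against 21.3%. After quantile normalization between arrays these counts were 17 (51.5%, against 28.6% of all genes) and 3, and 26 differences were above 0. The 8 genes are Sec61b, Sdf2l1, Atf3, Ssr1, P4hb, Hyou1, Ddit3 and Creld2. An exact permutation test with 2 rats a group, taken two-sided, reaches 0.333 at the lowest. Each limma p therefore borrows its error from all genes, and the counts describe 4 rats.

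**Figure D1:**
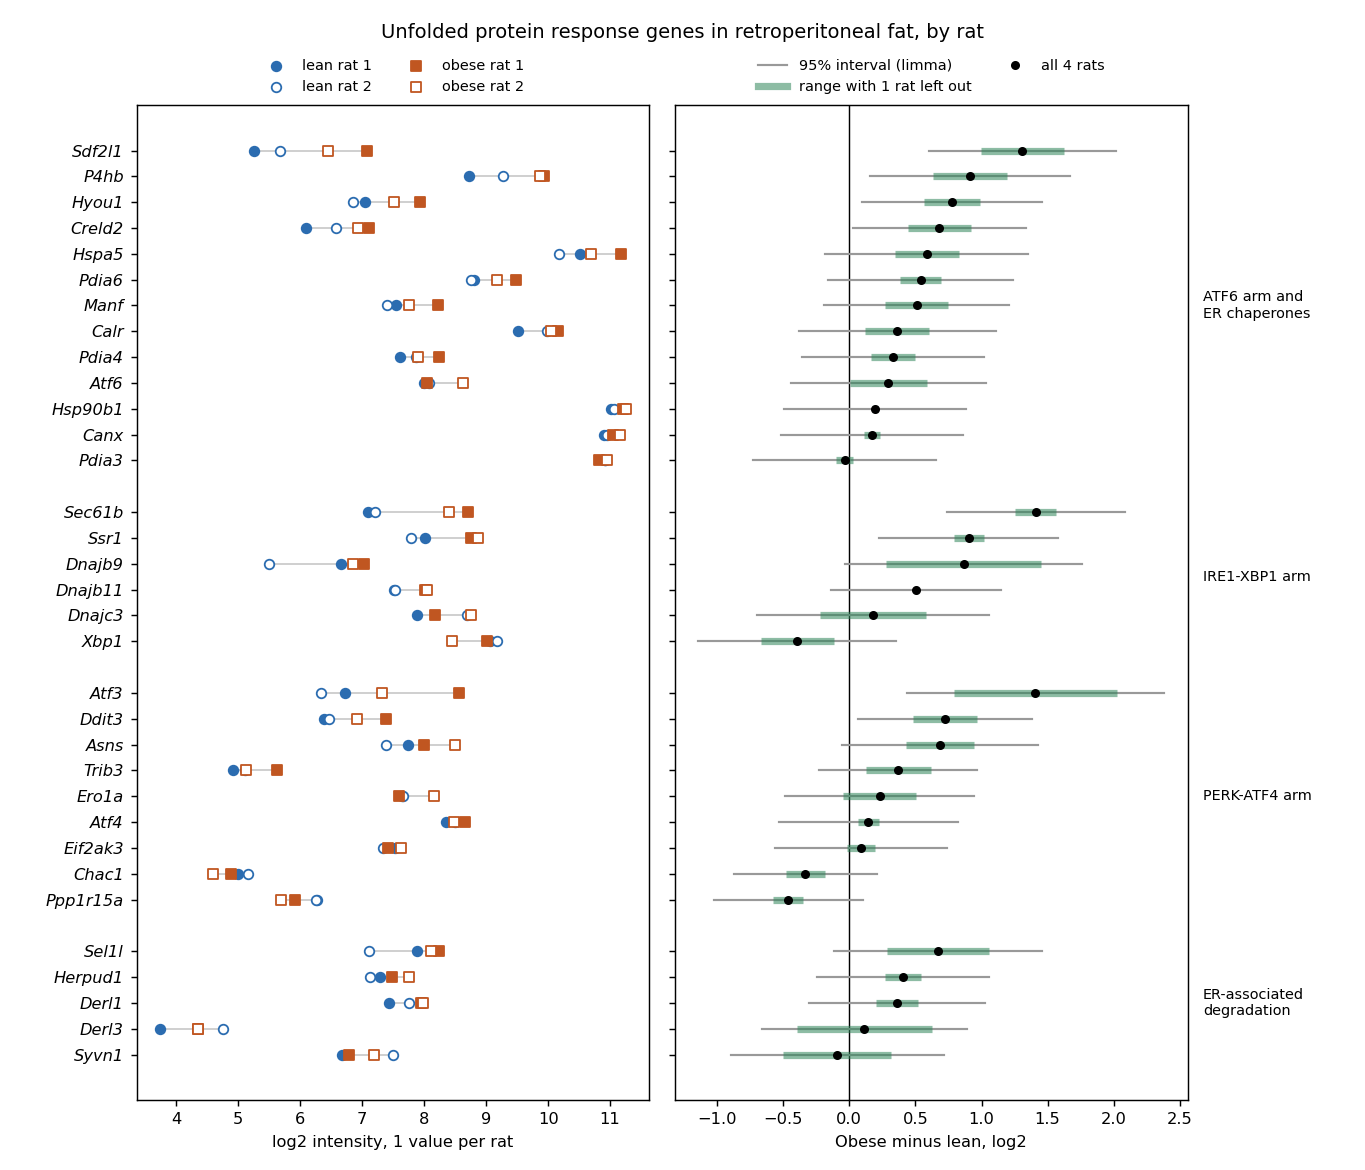
Left, log2 intensity of each of the 33 measured genes in each rat, with lean rats as blue circles and obese rats as orange squares (filled, rat 1; open, rat 2). Right, the difference obese minus lean on the log2 scale with its 95% limma interval and the range of the difference with 1 rat left out; 28 of 33 points lie right of 0, and Sec61b, Atf3 and Sdf2l1 lie farthest.

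The arrays bear on these values as follows. Median intensity over all rows ran from 39.9 to 44.5, and the middle spread of log2 values was 2.24 in lean rat 2 against 2.63 to 2.77 in the others. Of 14 adipocyte markers 13 had a row and none was below the background level on all arrays. That level is the 95th percentile of 188 olfactory and vomeronasal receptor genes on each array, from 4.48 to 5.24. Differences were above 0 for 11 of the 13 adipocyte markers (84.6%, against 84.8% of the members and 50.1% of all genes). Each obese rat was above either lean rat for 6 of them (46.2%, against 26.4% of all genes) and below for 0. The median of these markers was 0.26 (0.12 after quantile normalization). The 14 measured skeletal muscle markers had a summed intensity of 40813 in lean rat 1 against 607 to 830 in the other rats. Of 14 macrophage markers 4 had an adjusted p under 0.05 by limma, all higher (Gpnmb, Mpeg1, Lyz2 and Itgam), against 0.772% of all genes. At an unadjusted p under 0.05 limma gave 9 higher (64.3%, against 9.93% of all genes) and 0 lower (against 5.33%). The summed intensity of the 14 was 4303 and 3979 in lean rats 1 and 2 and 14846 and 9450 in obese rats 1 and 2. More macrophages and more RNA per macrophage cannot be told apart in whole tissue, and the part of these cells in the values below was not tested. The differences of 23 members stayed above 0 in all 14 alternative analyses, among them those without lean rat 1. Only rescaling, a pseudocount and leaving out a rat could change a difference, as the other alternatives repeat it. Even so, leaving out 1 rat moved the difference of 22 of 33 members by more than 1.5 times.

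The ATF6 arm and ER chaperones made the largest group. Of its 13 genes 11 had each obese rat above either lean rat (84.6%, against 26.4% of all genes). Its median difference was 0.51 (0.34 after quantile normalization), with 0 past the adjusted threshold. At an unadjusted p under 0.05 limma gave 4 higher (30.8%, against 9.93% of all genes). Sdf2l1, an ER-resident partner of the DnaJ co-chaperones, had log2 intensities of 5.25 and 5.67 in lean rats 1 and 2 and 7.08 and 6.45 in obese rats 1 and 2. Its groups were well separated, and the lower obese rat exceeded the higher lean rat. The difference was 1.31 ± 0.30 (SE, as throughout; n = 2 per group), or 2.48-fold, with a limma adjusted p of 0.112. P4hb, a disulfide isomerase that is also the beta subunit of the collagen prolyl hydroxylase, was at 8.72 and 9.27 in the lean rats and at 9.94 and 9.87 in the obese rats. The obese rats were close to each other and the lean rats apart, with lean rat 1 the lower. Its difference was 0.91 ± 0.33 (limma adjusted p = 0.259). Hyou1, the large chaperone that exchanges nucleotide on BiP, was at 7.05 and 6.84 against 7.94 and 7.51, a difference of 0.78 ± 0.29 (limma adjusted p = 0.275). Creld2, an ER-resident protein with disulfide isomerase motifs, was at 6.09 and 6.57 against 7.11 and 6.92, a difference of 0.68 ± 0.28 (limma adjusted p = 0.313). Neither gene's groups overlapped.

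Hspa5, which encodes BiP, the chaperone that holds the sensors inactive, was at 10.51 and 10.18 in the lean rats and at 11.17 and 10.69 in the obese rats. The difference of 0.59 ± 0.33 was about as large as the gap of 0.48 between the obese rats (limma adjusted p = 0.438, 95% interval -0.18 to 1.35). Manf, a small ER protein that binds BiP and can be secreted, was at 0.51, and the isomerases Pdia6 and Pdia4 were at 0.54 and 0.33. Without obese rat 1, Manf was at 0.27 and Pdia4 at 0.16. In each of these genes obese rat 1 was the highest of the 4 rats. The other abundant chaperones differed less. Hsp90b1, the ER member of the Hsp90 family, was at 11.02 and 11.06 against 11.21 and 11.25, a difference of 0.19. Canx, the membrane lectin chaperone, was at 0.17 and its soluble relative Calr at 0.36 (0.12 without lean rat 1 and 0.60 without lean rat 2), and their partner isomerase Pdia3 was at -0.03, with lean rats at 10.92 and 10.92 inside the obese values of 10.82 and 10.95 (0.06 after median centring). The limma intervals of these differences reach 0.88, 0.86, 1.11 and 0.66 upward, so differences up to that size are within the error. The sensor gene Atf6 was at 0.29, from a single rat, since obese rat 2 was at 8.63 and the others between 8.0 and 8.08.

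Several of these genes, of this arm and of others, share an element in their promoters that the choice of genes did not use directly. The ER stress response element (ERSE) is CCAAT, bound by NF-Y, and CCACG, bound by ATF6, with 9 free bases between them. ERSE-II is ATTGG and CCACG with 1 free base between them. Windows from 250 bases before to 50 after each RefSeq start site (build GRCr8) were searched on both strands for these letters. There were 33469 windows in all, and 28 of the 36 genes had at least 1. Atf6, Manf, Pdia3, Pdia6, Ern1, Atf3, Ero1a and Derl1 are without a window in the table. An exact ERSE was present in 22 of the 33469 windows (0.0657%) and in 8 of the 28 genes (28.6%), and an exact ERSE-II in 17 windows (0.0508%) and in 3 of the 28 genes (10.7%). Many of these genes are textbook targets, so the shares are a description and no test. The matches are given in the motif's own orientation, with the fixed letters in capitals and the free spacer in lower case, since they are what the genes have in common apart from their protein function.

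ERSE matches in build GRCr8, read 5′ to 3′.
Hspa5, chr3:38452973-38452991, + strand (gene on +): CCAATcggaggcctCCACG
Hsp90b1, chr7:23012451-23012469, - strand (gene on -): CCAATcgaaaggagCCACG
Hsp90b1, chr7:23012347-23012365, + strand (gene on -): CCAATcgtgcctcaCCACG
Creld2, chr7:121789239-121789257, - strand (gene on +): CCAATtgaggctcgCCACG
Canx, chr10:35158069-35158087, - strand (gene on -): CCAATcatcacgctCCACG
Xbp1, chr14:84604558-84604576, + strand (gene on +): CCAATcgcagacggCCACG
Dnajc3, chr15:102432534-102432552, + strand (gene on +): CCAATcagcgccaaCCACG
Calr, chr19:40213135-40213153, - strand (gene on +): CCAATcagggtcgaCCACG
Derl3, chr20:12766601-12766619, + strand (gene on -): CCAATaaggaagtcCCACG

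ERSE-II matches in build GRCr8, read 5′ to 3′.
Hyou1, chr8:53602694-53602704, - strand (gene on +): ATTGGcCCACG
Hyou1, chr8:53602794-53602804, - strand (gene on +): ATTGGgCCACG
Dnajb11, chr11:91672800-91672810, - strand (gene on -): ATTGGcCCACG
Herpud1, chr19:10614821-10614831, - strand (gene on -): ATTGGgCCACG

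The element lay from 10 to 232 bases upstream of the start site at its first base, and Hsp90b1 and Hyou1 each held a pair. The 8 measured genes with ERSE had a median difference of 0.19, from -0.39 for Xbp1 to 0.68 for Creld2, and the 3 with ERSE-II had 0.50. Over all 11 with either element the median was 0.36, and each obese rat was above either lean rat for 8, against 26.4% of all genes. The 15 measured genes with a window but neither element had a median of 0.67, with 10 such genes, Sec61b and Sdf2l1 among them. The difference between these sets was not tested. The upstream sequences of 4 genes are given with the letters of all exact matches in capitals. Hspa5 is the standard ERSE gene, Hyou1 carries the largest difference among the 11 members with either element, and Sdf2l1 and Sec61b carry 2 of the 3 largest differences with no exact match in their windows.
Hspa5, chr3:38452766-38453015, + strand: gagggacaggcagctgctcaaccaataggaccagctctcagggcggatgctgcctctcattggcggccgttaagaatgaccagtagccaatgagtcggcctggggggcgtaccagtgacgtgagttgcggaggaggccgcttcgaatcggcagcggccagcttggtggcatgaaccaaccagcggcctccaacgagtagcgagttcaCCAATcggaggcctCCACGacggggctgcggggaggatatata
Hyou1, chr8:53602632-53602881, + strand: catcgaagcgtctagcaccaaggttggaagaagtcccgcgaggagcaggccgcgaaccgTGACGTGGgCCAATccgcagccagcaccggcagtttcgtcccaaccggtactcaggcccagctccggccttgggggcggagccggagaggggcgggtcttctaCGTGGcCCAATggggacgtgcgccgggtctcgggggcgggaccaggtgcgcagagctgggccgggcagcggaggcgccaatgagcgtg
Sdf2l1, chr11:97376628-97376877, + strand: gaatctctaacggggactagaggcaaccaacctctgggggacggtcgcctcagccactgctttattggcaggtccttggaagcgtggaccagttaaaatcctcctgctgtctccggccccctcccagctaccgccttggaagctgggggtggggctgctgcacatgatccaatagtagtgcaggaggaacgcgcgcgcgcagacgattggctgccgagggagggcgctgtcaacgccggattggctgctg
Sec61b, chr5:66568934-66569183, + strand: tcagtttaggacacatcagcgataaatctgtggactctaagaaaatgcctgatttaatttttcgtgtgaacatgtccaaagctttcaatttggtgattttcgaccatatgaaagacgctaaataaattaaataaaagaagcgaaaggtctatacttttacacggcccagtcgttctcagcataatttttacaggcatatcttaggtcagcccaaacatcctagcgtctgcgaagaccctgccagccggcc
In Hyou1 the first run of capitals joins an ERSE-II on the opposite strand with an overlapping TGACGTGG, the unfolded protein response element (UPRE), which was found in 1 of the 28 genes (3.57%) and in 0.595% of all windows. The lack of an exact match in the other sequences says only that these letters are not in the window.

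**Figure D2:**
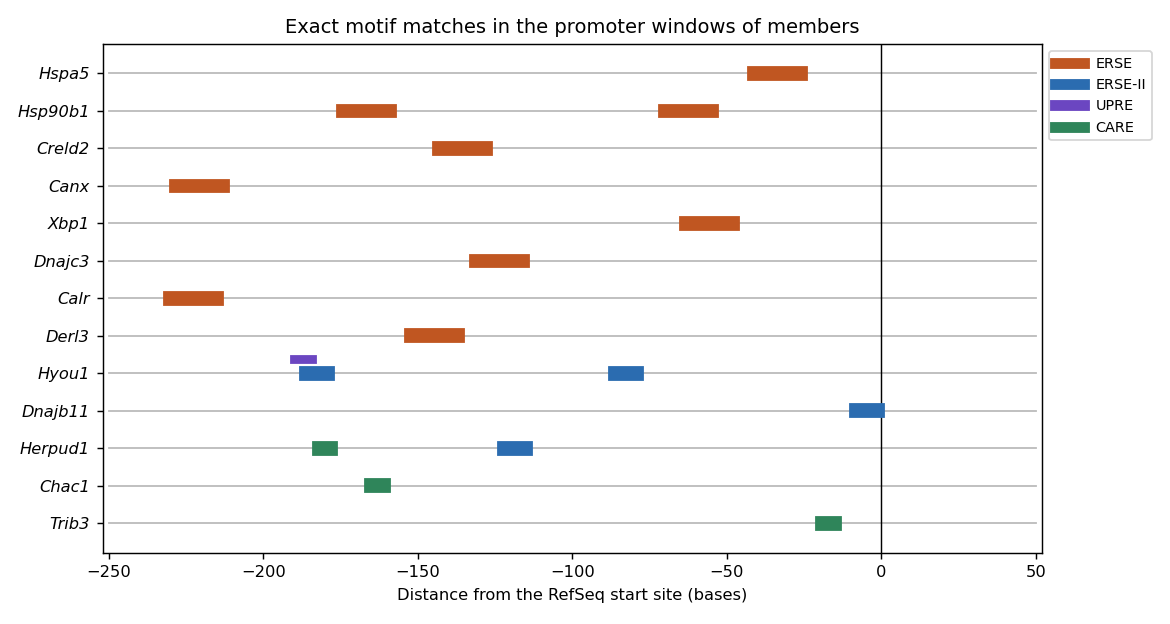
Positions of exact matches of 4 motifs in the promoter windows of 13 genes, in bases from the RefSeq start site; bars span each match. ERSE (orange) is in 8 genes, ERSE-II (blue) in 3, UPRE (purple) in 1 and the ATF4 element called CARE (green) in 3.

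In the IRE1-XBP1 arm the translocation genes stood highest, while Xbp1 itself had a value below 0. Of its 6 measured genes 4 had each obese rat above either lean rat (66.7%, against 26.4% of all genes). In 1 they were below (16.7%, against 21.3%). The median was 0.68, with 0 past the adjusted threshold. It was 0.54 after quantile normalization, 0.55 without lean rat 2 and 0.75 without lean rat 1. Sec61b, the beta subunit of the channel through which nascent proteins enter the ER, was at 7.09 and 7.21 in lean rats 1 and 2 and at 8.71 and 8.40 in obese rats 1 and 2. The rats of each phenotype were close together and the groups far apart. The difference of 1.41 ± 0.29, or 2.66-fold, had the smallest adjusted p of all members (limma adjusted p = 0.0841), and its 95% interval ran from 0.74 to 2.08. Ssr1, a subunit of the translocon-associated complex, was at 8.01 and 7.79 against 8.75 and 8.86, a difference of 0.90 ± 0.29 (limma adjusted p = 0.224).

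The BiP co-chaperones of this arm were less alike. Dnajb9, a co-chaperone that also represses IRE1, was at 6.66 and 5.49 in the lean rats and at 7.03 and 6.85 in the obese rats. Its difference of 0.86 ± 0.39 turned on the lean rats. Leaving out lean rat 2 gave 0.28, and leaving out lean rat 1 gave 1.45, each with a single lean rat left. Dnajb11, which helps BiP bind its clients, was at 7.51 and 7.53 against 8.01 and 8.04, so that its difference of 0.50 came with very little spread in either group. Dnajc3, an inhibitor of PERK, overlapped between groups, with a difference of 0.18 that turned to -0.22 on leaving out lean rat 1, and to -0.11 on leaving out obese rat 2. Xbp1, the transcription factor whose messenger is spliced by IRE1, was at 9.07 and 9.17 in the lean rats and at 9.01 and 8.45 in the obese rats. Obese rat 1 lay just below the lean rats and obese rat 2 further below, for a difference of -0.39 ± 0.32 (limma adjusted p = 0.606), which was -0.11 without obese rat 2. The row measures Xbp1 as a whole, and its spliced form was not measured here.

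The PERK-ATF4 arm held genes with differences on both sides of 0. Of its 9 genes 4 had each obese rat above either lean rat (44.4%, against 26.4% of all genes), 2 had them below (22.2%, against 21.3%) and 3 overlapped, with a median of 0.23 (0.074 after quantile normalization) and 0 past the adjusted threshold. Atf3, a stress-induced transcription factor, was at 6.73 and 6.33 in the lean rats and at 8.55 and 7.32 in the obese rats. Obese rat 1 was far above obese rat 2, by 1.24, which is nearly the size of the difference between phenotypes, 1.41 ± 0.42 (limma adjusted p = 0.199). Leaving out obese rat 1 gave 0.79, and leaving out obese rat 2 gave 2.03, each with a single obese rat left. Ddit3, which encodes the factor CHOP, was at 6.39 and 6.47 against 7.39 and 6.91, a difference of 0.72 ± 0.28 (limma adjusted p = 0.291). Asns, the asparagine synthetase, was at 7.74 and 7.38 against 7.99 and 8.50, a difference of 0.69 ± 0.32. For Asns obese rat 2 was the higher obese rat, unlike for Atf3 and Ddit3.

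Some genes further downstream of ATF4 had values below 0. Ppp1r15a, the phosphatase subunit GADD34 that reverses PERK's block of translation, was at 6.27 and 6.25 in the lean rats and at 5.91 and 5.68 in the obese rats. Its groups did not overlap, with the obese rats lower, and its difference was -0.46 ± 0.24 (limma adjusted p = 0.409). Chac1, a glutathione-degrading enzyme induced by ATF4, was at 4.99 and 5.16 against 4.89 and 4.60, a difference of -0.33. Trib3, a pseudokinase induced by CHOP and ATF4, was at 4.91 and 5.11 against 5.63 and 5.13, a difference of 0.37 that was 0.12 without obese rat 1. Chac1 and Trib3 were each below the background level on 1 array, so their differences are near what the array can resolve. Atf4 itself, regulated largely at translation, was at 0.14 (-0.02 after quantile normalization), the sensor gene Eif2ak3 at 0.09 (-0.07 after quantile normalization) and Ero1a, the oxidase that recharges disulfide isomerases, at 0.23. The groups of all 3 overlapped, and the limma interval of Atf4 ran from -0.53 to 0.82.

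The ATF4 element (CARE, letters TGATGNAA on either strand) was present in 3 of the 28 genes with a window (10.7%) and in 3.98% of all windows. Chac1 and Trib3, both textbook ATF4 targets, and Herpud1 held it. The upstream sequence of Chac1, whose value was lower in both obese rats, and that of Xbp1, the gene with ERSE and a value below 0, are given with their matches in capitals.
Chac1, chr3:126795881-126796130, + strand: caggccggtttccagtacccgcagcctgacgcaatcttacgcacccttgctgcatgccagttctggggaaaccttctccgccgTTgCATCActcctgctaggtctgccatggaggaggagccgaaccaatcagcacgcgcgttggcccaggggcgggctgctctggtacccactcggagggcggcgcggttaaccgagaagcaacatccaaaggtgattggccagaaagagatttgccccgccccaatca
Xbp1, chr14:84604373-84604622, + strand: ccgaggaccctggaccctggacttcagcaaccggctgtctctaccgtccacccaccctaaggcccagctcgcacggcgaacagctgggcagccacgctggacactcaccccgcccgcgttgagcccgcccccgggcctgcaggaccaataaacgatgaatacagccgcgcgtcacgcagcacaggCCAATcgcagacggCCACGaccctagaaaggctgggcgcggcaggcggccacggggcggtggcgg

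Genes of ER-associated degradation, which returns misfolded proteins to the cytosol for destruction, had mostly positive differences. Of the 5 measured, 3 had each obese rat above either lean rat (60.0%, against 26.4% of all genes) and 2 overlapped. The median was 0.36 (0.26 after quantile normalization), with 0 past the adjusted threshold. Sel1l, the adaptor of the HRD1 ubiquitin ligase, was at 7.88 and 7.12 in the lean rats and at 8.23 and 8.11 in the obese rats, a difference of 0.67 ± 0.34 that was 0.29 without lean rat 2. Herpud1, a membrane scaffold of the same complex, was at 0.41 and Derl1, a subunit of its channel, at 0.36 (0.20 without lean rat 1). Syvn1, which encodes the HRD1 ligase itself, overlapped between groups at -0.09, with 0.0077 after median centring and 0.32 on leaving out lean rat 2. Derl3, which is typical of professional secretory cells, was below the background level on all 4 arrays, so its difference of 0.11 has no clear meaning.

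The rats of a phenotype also differed from each other. Obese rat 1 exceeded obese rat 2 in 19 of 33 members, 57.6% against 45.5% of all genes, and in 9 of 13 genes of the ATF6 arm. Beside Atf3, the gap in its favour was 0.62 for Sdf2l1, 0.50 for Trib3, 0.48 for Ddit3 and Hspa5, and 0.47 for Manf. Other members ran the other way, since obese rat 2 was higher by 0.58 for Atf6 and Dnajc3, by 0.56 for Ero1a and by 0.51 for Asns. The summed macrophage markers were also higher in obese rat 1 (14846 against 9450), while the summed adipocyte markers were higher in obese rat 2 (35733 against 28263). Whether these go with the members' gaps was not tested. Lean rat 1 exceeded lean rat 2 in 12 members, 36.4% against 41.7% of all genes. The widest gaps between them were in Dnajb9 (1.17), Derl3 (-1.02), Syvn1 (-0.82), Dnajc3 (-0.80) and Sel1l (0.77), given as rat 1 minus rat 2.

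**Figure D3:**
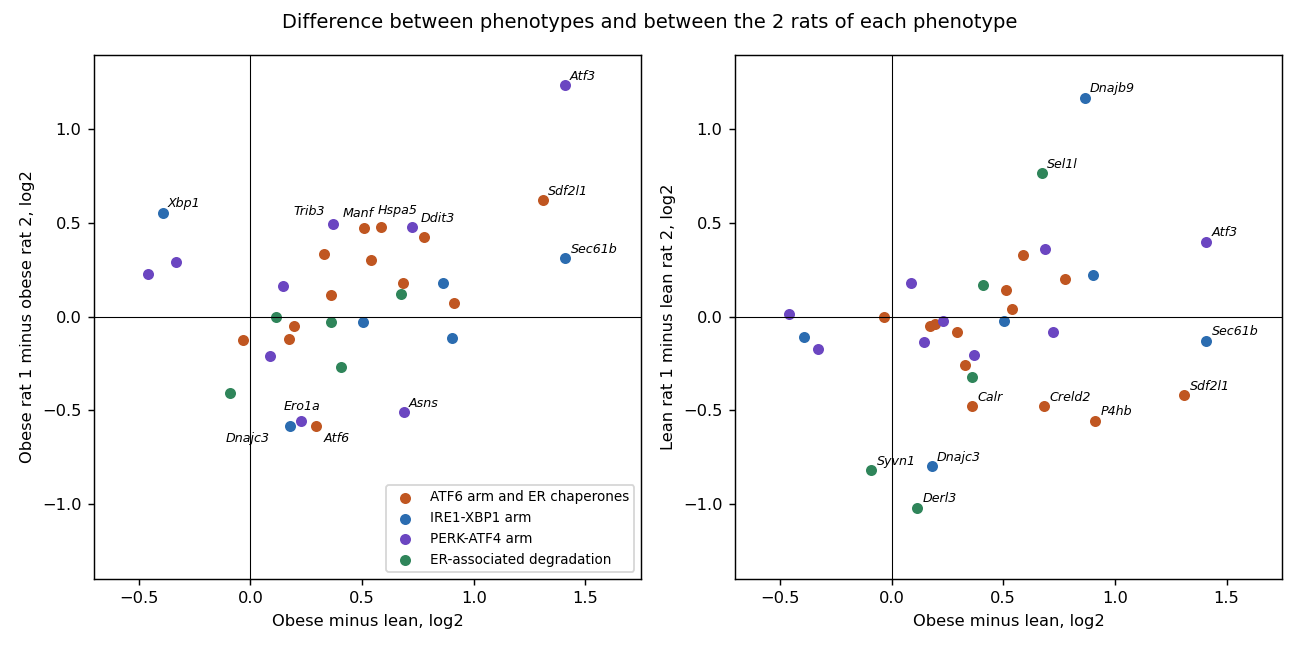
Each point is 1 of the 33 genes, placed by its difference between phenotypes (horizontal, log2) and its difference between the rats of 1 phenotype (vertical, log2; obese rats left, lean rats right), coloured by arm. Atf3 has the widest gap between obese rats at 1.24 and Dnajb9 the widest between lean rats at 1.17, whereas Sec61b lies far right with small gaps.

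Other genes of the same pathway also had mostly positive differences. Among 111 measured genes of 5 further lists 0 passed the adjusted threshold. At an unadjusted p under 0.05 limma gave 24 higher (21.6%, against 9.93% of all genes) and 1 lower (0.901%, against 5.33%). Each obese rat was above either lean rat for 60 (54.1%, against 26.4% of all genes) and below for 4 (3.6%, against 21.3%). Their median was 0.39, close to the 0.37 of the 33 members. Folding and glycosylation genes had a median of 0.52 over 28 genes, with each obese rat above either lean rat for 21 and below for 0. Serpinh1, the collagen chaperone, was at 1.16, Ostc and Ddost, subunits of the oligosaccharyltransferase, at 1.15 and 0.96, and none of the 3 passed (limma adjusted p = 0.143, 0.171 and 0.224). Translocation and export genes had a median of 0.50 over 20 genes (0.33 without lean rat 2), with the partners of Ssr1, Ssr4 and Ssr2, at 1.36 and 1.24. The cargo receptor subunit Mcfd2 was at 0.92.

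Further ATF4 targets and amino acid genes had a median of 0.34 over 26 genes (0.20 after quantile normalization), led by the tryptophan tRNA synthetase Wars1 at 1.22, the secreted hormone Stc2 at 0.98 and the cystine carrier Slc7a11 at 0.89. Slc7a11 was at 3.12 and 3.88 in the lean rats and at 4.33 and 4.45 in the obese rats, all below the background level. Further degradation genes had a median of 0.40 over 18 genes (0.20 without lean rat 2 and 0.25 after quantile normalization), with Vcp, the ATPase that pulls proteins from the ER, at 0.88 and the mannosidase-like Edem2 at 0.84. The ubiquitin ligase Rnf5 was at 0.70. Sensors and regulators had a median of 0.18 over 19 genes, which was 0.015 without lean rat 2, 0.42 without lean rat 1 and 0.085 after quantile normalization. Among them Bcl2l11, which encodes the cell death factor Bim, was at 4.40 and 4.25 against 5.52 and 5.42, a measured difference of 1.15 (limma adjusted p = 0.0704). Both lean values were below the background level, so the mean of the obese rats was at least 1.43-fold higher, with lean rats set to that level. Creb3, an ER-anchored transcription factor, was at 1.02 and Atf6b, the relative of Atf6, at 0.53 (0.25 without lean rat 1).

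**Figure D4:**
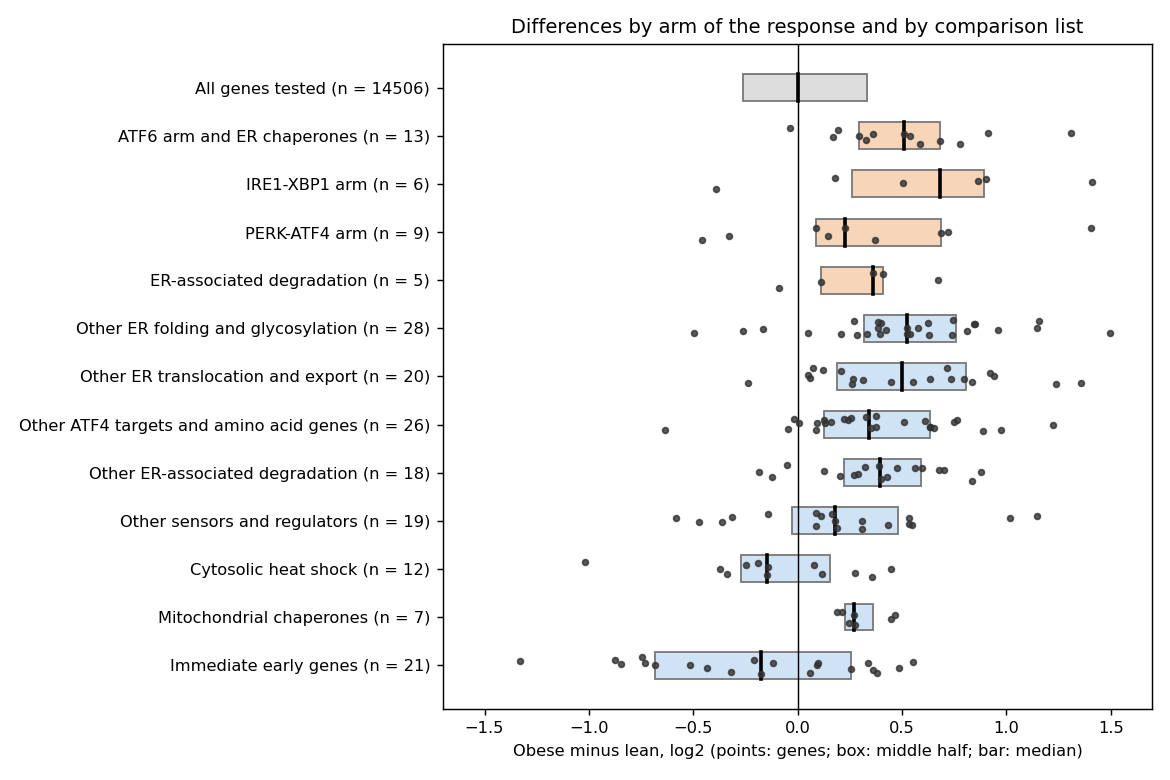
Differences obese minus lean (log2) for all genes tested (grey box), the 4 arms (orange) and the comparison lists (blue); points are genes, boxes the middle of the distribution from the 25th to the 75th percentile and bars the medians. Medians run from 0.23 to 0.68 in the arms, and cytosolic heat shock and immediate early genes have medians of -0.15 and -0.17 (0.13 without lean rat 1 and 0.036 without lean rat 2).

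Mitochondrial chaperones, another set of folding genes, also had positive differences, in 7 of 7. Each obese rat was above either lean rat for 5 of the 7 (71.4%, against 66.7% of the members and 26.4% of all genes). The median of 0.27 lay above the 0.23 of the PERK-ATF4 arm. After quantile normalization it was 0.11, and that of the PERK-ATF4 arm was 0.074. None of the 7 mitochondrial chaperones passed the adjusted threshold, and 0 had an unadjusted p under 0.05 by limma. Trap1 was at 0.45, Grpel1 at 0.47 (0.19 without obese rat 2) and the protease Lonp1 at 0.28. Cytosolic heat shock genes had a median of -0.15 over 12 genes. Of the 12 genes 3 were higher and 4 lower in both obese rats, against 26.4% and 21.3% of all genes. There were 0 past the adjusted threshold or at an unadjusted p under 0.05 by limma. Without lean rat 1 the median of the heat shock genes was 0.13. In lean rat 1, the rat with the muscle transcripts, Hspb8, a small heat shock protein abundant in muscle, was at 7.11 against 4.83 to 5.30 in the others. Hsp90aa1 was at 0.45 (0.22 without lean rat 2) and Bag3 at -0.37.

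Atf3 also belongs to the early stress response, so the immediate early genes were set beside it. Their median was -0.17 over 21 genes (0.036 without lean rat 2), with 4 higher and 7 lower in both obese rats (19.0% and 33.3%, against 26.4% and 21.3% of all genes). At an unadjusted p under 0.05, 4 were lower by limma (19.0%, against 5.33% of all genes) and 0 higher (against 9.93%). The nuclear receptor genes Nr4a3 and Nr4a1 were at -0.85 and -1.33 and Ier3 at -0.73. The latter 2 were carried in part by lean rat 1, without which Nr4a1 was at -0.47 and Ier3 at -0.45. None was past the adjusted threshold (limma adjusted p = 0.174, 0.273 and 0.276). Of the 21 genes 9 had differences above 0, as Atf3 did (42.9%, against 50.1% of all genes).

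Plasma cells are rich in several of these chaperones. Of 9 measured plasma cell and B cell markers 2, Tnfrsf17 and Ms4a1, were below the background level on all 4 arrays, and their summed intensity was 354 and 365 in the lean rats and 521 and 427 in the obese rats. Irf4, a factor of plasma cells and macrophages, was at 0.97, with lean rat 2 below the background level, and Cd79b at -0.57. Blnk was below that level in both lean rats, and the mean of the obese rats was at least 1.62-fold higher, with lean rats set to that level. Obese rat 2, at 5.39, was only just above the 5.24 of that level in lean rat 2. None of the 3 passed. Fibroblast and progenitor markers, whose cells secrete collagen, had a median of -0.03 over 12 genes, with Thy1 at 1.35 and Pdgfrb at 0.69 but Dpt at -0.67. That median was -0.20 after quantile normalization and 0.065 after median centring. Endothelial markers had a median of -0.28 (-0.49 without lean rat 2), with 0 past the adjusted threshold. Mesothelial markers had a median of -0.92, also with 0 past it, and lean rat 1 stood apart, with a summed intensity of 818 against 263, 183 and 223 in the other rats. Their median was -0.50 without lean rat 1 and -1.57 without lean rat 2. Erythroid markers had a median of -1.30, with 0 past the threshold, and -0.55 without obese rat 2, where they were lowest, and -2.09 without obese rat 1. The endothelial genes Emcn, Plvap and Kdr were at -1.19, -0.89 and -0.74. Krt19 of the mesothelium was at 8.53 in lean rat 1 and below the background level in the other 3 rats. Gpm6a was at -1.01 and Krt18 at -1.24 (-0.67 without lean rat 1). T cell markers had a median of -0.0024 (0.20 after quantile normalization), with 3 of 8 (Cd3d, Cd3e and Cd247) below the background level on all arrays. The part of these cell types in the members' values was not tested.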

How the data were processed

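Total RNA from 500 mg of frozen fat per rat, of which 100 ng was amplified, was hybridised to 1 array each, per the labels' protocols. The authors deposited 1 intensity per row and array, processed with RMA according to the submitters' processing notes, which name no version. The deposited arrays still differed in spread, so a further quantile normalization was an alternative. The design assumed log2 values, but the deposited intensities proved to be linear, and log2 of them was taken without a pseudocount.

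The platform's annotation gave exactly 1 symbol to 15310 of 29214 rows, several to 323 and none in that table to 13581. The row with the highest mean was kept for the 527 genes with more than 1, which left 14506 genes with no filter on dim ones. All 33 measured members matched RefSeq (GRCr8) by gene ID. Groups followed the sample titles, and obese were set against lean rats in limma 3.58.1 (R 4.3.3; lmFit, eBayes with a mean-variance trend, no covariates), with Benjamini-Hochberg adjustment over all genes and a threshold of 0.05. The procedure was tested on simulated data. The number of arrays limits the precision.

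Members and lists were chosen with earlier results of these data known, and genes were assigned to arms by name. Every measured member may be named, and of other lists the genes past the threshold and the 3 with the smallest p. Tnfrsf17, Ms4a1, Cd3d and Cd3e, and in the closing section Dad1, Sar1b, Zfand2a, Ppm1l, Cdc27 and Hnrnpa3, fall outside this rule and were chosen after their values were seen. Alternatives tried were a block for the rat number, other scaling, variance models, array weights, filters, a pseudocount of 16, other row choices, a threshold of 0.1 and each rat left out. Figures were drawn with matplotlib 3.10.9.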

Additional observations from a re-analysis of the deposited data

How the results depend on the processing

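Of the 33 members, 26 kept the sign of their difference in all 14 alternatives, 23 of them above 0 and 3 below. Only quantile normalization, median centring, the pseudocount and the analyses without 1 rat could change a sign. The remaining alternatives leave each member's difference as it was. The other members changed sign as follows, all with values that did not pass. With quantile normalization Eif2ak3 was at -0.072 and Atf4 at -0.021, and with median centring Pdia3 was at 0.064 and Syvn1 at 0.0077. Over the 4 analyses that each leave out a rat, Pdia3 ran from -0.097 to 0.029, Dnajc3 from -0.22 to 0.58, Eif2ak3 from -0.016 to 0.19, Ero1a from -0.050 to 0.51, Syvn1 from -0.50 to 0.32 and Derl3 from -0.40 to 0.62. The count of members past the adjusted threshold was 0 with all 4 rats, and was 1, Sec61b, at a threshold of 0.1. With a rat left out, 1 group is a single rat with no spread of its own, so those analyses are not counted here. Dnajb9 was at 1.45 without lean rat 1. Without obese rat 2 Sdf2l1 was at 1.62 and Atf3 at 2.03. The members' median of 0.37 was 0.30 with quantile normalization, 0.47 with median centring and between 0.27 and 0.46 when a rat was left out. Over all genes the median also rose, to 0.049 with quantile normalization and 0.099 with median centring. The count of members with each obese rat above either lean rat was 22, and 17 and 25 with quantile normalization and median centring. The share of all genes was 26.4%, and 28.6% and 33.5% in these alternatives, which were chosen after seeing the data. Over 3 rats the members' count was between 23 and 27, but the criterion is then looser. All genes met it in 33.4% to 43.8% of cases there. Over the other pathway genes the median of 0.39 was 0.26 with quantile normalization, 0.48 with median centring and 0.33 with a pseudocount of 16, and between 0.32 and 0.43 when a rat was left out. The count of pathway genes past the threshold, 0, was 1 with the replicate block, 1 with the robust variance model and 1 at a threshold of 0.1, each time Bcl2l11, whose lean values were below the background level. It was between 0 and 5 when a rat was left out; the 5 without lean rat 1 were Bcl2l11, Dad1, Sar1b, Ssr2 and Ssr4, the 2 without lean rat 2 were Bcl2l11 and Slc7a11, and Dad1 passed without obese rat 2.

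Over all genes 122 passed. The count was 75 with quantile normalization, 262 with the robust variance model, 185 over all rows of the table and 301 at a threshold of 0.1, and between 268 and 1081 when a rat was left out, where the spread came from fewer rats. The labels do not say whether lean and obese rats of the same number share anything else, such as a litter. The correlation of their deviations from the group means was 0.020 over genes, which cannot decide this with 2 rats a group. With the replicate block the count was 327, and 0 members passed. Without lean rat 1 the muscle transcripts no longer enter, but the lean group is then 1 rat assumed to vary like the others. Values near the background level (Derl3, Bcl2l11 and Blnk in lean rats, Slc7a11, and Chac1 and Trib3 on 1 array) understate differences. No protein, splicing or phosphorylation was measured.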

Other observations

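Outside the 36 genes, 27 others had an exact ERSE or ERSE-II in their promoter window, and 17 of these were measured. Their median difference was -0.04, 7 were above 0, and none had an adjusted p under 0.05 by limma (3 higher and 1 lower at an unadjusted p under 0.05, 17.6% and 5.88% against 9.93% and 5.33% of all genes). Each obese rat exceeded either lean rat in 4 of the 17, and was below either in 5, against 26.4% and 21.3% of all genes. Values ran from -0.63 for Hnrnpa3, an RNA-binding protein, to 1.11 for Cdc27, a subunit of the anaphase-promoting complex. Zfand2a, a zinc finger protein induced by proteotoxic stress, was at 5.93 and 5.67 in the lean rats and at 7.12 and 6.46 in the obese rats, and the phosphatase gene Ppm1l was at 0.95. These genes were found by the letters of their promoters, so their values are a description.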
